A study of Mus musculus with 20 samples.

Results

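GIRK channels are potassium channels that open when a receptor coupled to inhibitory G proteins is activated. The 4 genes of the family, Kcnj3 (GIRK1), Kcnj6 (GIRK2), Kcnj9 (GIRK3) and Kcnj5 (GIRK4), were taken by name from a table of estimated read counts for 107185 RefSeq transcripts. They held 14 of those transcripts, 3 for Kcnj3, 5 for Kcnj5, 5 for Kcnj6 and 1 for Kcnj9, and they were 4 of the 32962 named genes. All 4 genes had counts in every one of the 20 libraries.

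The libraries came from 10 male C57BL/6J mice, 9 to 12 weeks old, of which 5 were injected with morphine and 5 with vehicle. Their titles read OIH for morphine and VehicleOIH for the controls, where OIH commonly stands for opioid-induced hyperalgesia, a rise in pain sensitivity brought on by opioids themselves. The labels name no dose, route or schedule beyond collection 24 h after the final injection. Trigeminal ganglia (TG), home of the sensory neurons that serve the face and the meninges, and nucleus accumbens (NAc), a part of the ventral striatum, were taken from each mouse, which gave 4 groups of 5 libraries.

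Opioid receptors and many other receptors release beta-gamma subunits of inhibitory G proteins, which bind GIRK channels and open them, and the outflow of potassium then quiets the neuron. The channels are tetramers of mixed subunits. GIRK1 cannot reach the cell surface on its own and needs a partner subunit, GIRK2 can form channels without GIRK1, GIRK3 lowers the number of channels at the surface, and GIRK4 is best known as the partner of GIRK1 in the heart's atria. In the brain GIRK1, GIRK2 and GIRK3 are widespread, while in sensory ganglia opioid receptors also act on calcium channels and on cyclic AMP.

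The TG libraries held between 61285916 and 76110288 estimated counts each, the NAc libraries between 52402037 and 64357778. Levels are given as CPM, counts scaled to a common library size over all 20 libraries. The tissues carried their own markers: 9 of 9 sensory neuron markers summed to 3594 to 4269 CPM in TG and 22.4 to 42.1 in NAc, and 8 of 8 medium spiny neuron markers summed to 193 to 217 CPM in TG and 1462 to 4959 in NAc. The NAc libraries were uneven. The 7 markers of cortical excitatory neurons, all counted, summed to 156 to 1162 CPM in vehicle and 207 to 1378 CPM in morphine NAc libraries, and the library numbered 3 was the highest of its group both times. The vehicle NAc libraries numbered 2 and 5 had the lowest and the highest medium spiny neuron sums, 1462 and 4959 CPM. In TG, 7 of 7 pituitary markers summed to between 19.7 and 1434 CPM.

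Kcnj3, which encodes the subunit that depends on a partner (gene 16519, GRCm38.p6 chr2:55411798-55598145, plus strand), was the most abundant GIRK gene in both tissues. In TG its level was 35, 35.7, 33.4, 29.2 and 31.1 CPM in the vehicle libraries and 29.4, 35, 35.8, 28.6 and 31.4 CPM in the morphine libraries. In NAc it was 23.2, 26.6, 65.5, 39.5 and 14.7 CPM with vehicle and 33.4, 20.8, 63, 33.6 and 16.7 CPM with morphine. The TG libraries lay close together and fell inside the range of the NAc libraries. The highest vehicle NAc library was 4.46 times the lowest, against 1.22 times in vehicle TG. Among features averaging at least 1 CPM, 94.1% had a lower coefficient of variation than the 58.4% of Kcnj3 in vehicle NAc, and 50.7% had one lower than its 8.22% in vehicle TG.

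Most Kcnj3 counts fell on NM_008426.2, the transcript of the full-length channel with 501 codons, which held 88.4% of the gene's counts in TG and 85.7% in NAc. A short form, NM_001304810.1, skips a coding exon of 217 bases at chr2:55446826-55447042 and ends after 235 codons. Both forms are shown at the junction after their first coding exon, since their coding regions part there. Capitals mark the bases after the junction, from GENCODE M21 transcripts on GRCm38, plus strand.
Kcnj3, long form NM_008426.2: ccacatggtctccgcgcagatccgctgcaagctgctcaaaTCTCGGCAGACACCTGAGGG
Kcnj3, short form NM_001304810.1: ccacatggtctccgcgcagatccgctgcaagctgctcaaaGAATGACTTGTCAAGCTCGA

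The short form held 4.71% ± 3.34 of Kcnj3 counts in TG and 5.65% ± 3.65 in NAc (SD, n = 10 libraries each). Its lowest and highest shares were 0.852% and 10.1% in TG, 0% and 12.6% in NAc, so single libraries differed more than the tissues did. The third transcript, XM_006497731.3, held 6.89% in TG and 8.64% in NAc. For the long form the share was higher in TG in 9 of 10 mice, by 2.69 percentage points ± 2.61 (SD), with an exact sign-flip p = 0.00586 and an adjusted p = 0.0586 over 10 transcripts. Without morphine mouse 1 the difference was 3.13 points and the adjusted p = 0.0391 in the same exact test.

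Kcnj6 encodes GIRK2, the main partner of GIRK1 in the brain (gene 16522, GRCm38.p6 chr16:94744980-94997696, minus strand). In TG it was counted at 1.08, 1.46, 1.34, 0.915 and 1.14 CPM with vehicle and at 0.841, 1.13, 1.14, 1.01 and 1.16 CPM with morphine. In NAc the values were 3.27, 5.35, 11, 6.68 and 1.27 CPM with vehicle and 4.53, 3.74, 10.8, 7.44 and 2.25 CPM with morphine. Every NAc library but the vehicle library numbered 5 lay above all TG libraries, and that one, at 1.27 CPM, fell among them. The number 3 libraries were again the highest of both NAc groups.

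Both main Kcnj6 transcripts encode channels that differ only at the very end of the protein. NM_001025584.2 codes for 414 codons and NM_010606.2 for 425. The longer form ends in a PDZ-binding tail that sorting nexin 27, a trafficking protein encoded by Snx27, recognises. The ends of the coding regions are shown because the split of counts between the forms rests on them and on what follows them. Lower case marks the shared coding stretch and capitals what follows the point where the exons part, stop codon included (the first capital is the same in both), from GENCODE M21 transcripts on GRCm38, written 5′ to 3′ on the minus strand.
Kcnj6, shorter form NM_001025584.2: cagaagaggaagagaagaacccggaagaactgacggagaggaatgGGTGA
Kcnj6, longer form NM_010606.2: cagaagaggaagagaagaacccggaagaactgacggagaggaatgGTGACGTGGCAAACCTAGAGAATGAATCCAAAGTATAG

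The shorter form held 67.6% ± 9.87 of Kcnj6 counts in TG and 66% ± 5.43 in NAc, and the longer form 31.5% ± 9.63 and 33.4% ± 5.43 (SD, n = 10 libraries each). Neither share passed the test between the tissues (exact sign-flip adjusted p = 0.869 for both). In TG the longer form rested on 8.71 to 41.4 counts per library and the shorter on 32.9 to 65.6. The shares there are thus imprecise, and a small shift could have been missed.

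The other 3 Kcnj6 transcripts had almost no counts. NM_001025585.2 had at most 3.39 counts in a library, XM_011246104.1 at most 2.93 and NM_001025590.1 at most 4.63. The last of these corresponds to a GENCODE model that starts inside the gene, near a second RefSeq start site, while both main forms correspond to models that begin at the outer start. The 250 bases before each start are shown from the RefSeq promoter table of GRCm38.p6, as an upstream window whose transcripts were counted and one whose transcript was nearly uncounted, both 5′ to 3′ on the minus strand.
Kcnj6, before the outer start, chr16:94997697-94997946: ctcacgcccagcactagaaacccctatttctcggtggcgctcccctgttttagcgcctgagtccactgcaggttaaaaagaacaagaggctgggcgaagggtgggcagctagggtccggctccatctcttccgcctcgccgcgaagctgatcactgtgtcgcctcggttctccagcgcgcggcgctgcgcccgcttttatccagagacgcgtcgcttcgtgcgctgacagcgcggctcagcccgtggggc
Kcnj6, before the inner start, chr16:94856691-94856940: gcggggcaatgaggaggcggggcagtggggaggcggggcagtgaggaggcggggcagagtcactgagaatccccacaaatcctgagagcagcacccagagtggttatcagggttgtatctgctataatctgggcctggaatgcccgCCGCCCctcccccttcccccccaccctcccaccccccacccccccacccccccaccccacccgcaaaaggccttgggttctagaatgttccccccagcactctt

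Both windows are rich in G and C, 64% for the outer and 65.6% for the inner. Capitals mark the only match to the 4 motifs searched on both strands, a GC box (GGGCGG, here as CCGCCC on the printed strand). A GC box is found in 32.7% of all 32851 RefSeq windows of this length, TATAAA in 12.4%, CACGTG in 6.02% and TGACGTCA in 1.55%, so a match of this kind is common among windows and is a description only.

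Kcnj9, which encodes GIRK3 (gene 16524, GRCm38.p6 chr1:172320508-172329322, minus strand), has 1 transcript in the table, NM_008429.2. Its TG levels were 1.63, 0.993, 0.679, 1.49 and 1.65 CPM with vehicle and 1.1, 1.05, 0.584, 1.6 and 1.54 CPM with morphine. In NAc it stood at 10.5, 14.1, 22.3, 15.2 and 10.1 CPM with vehicle and at 13.8, 11.8, 23.6, 14 and 8.1 CPM with morphine. No TG library reached the lowest NAc library, and vehicle and morphine libraries overlapped within each tissue.

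Kcnj5, which encodes GIRK4 (gene 16521, GRCm38.p6 chr9:32314706-32344380, minus strand), had the lowest mean CPM of the GIRK genes in every group. In TG it had between 4.2 and 17.7 counts per library, or 0.282, 0.0544, 0.162, 0.19 and 0.0653 CPM with vehicle and 0.168, 0.2, 0.0769, 0.149 and 0.121 CPM with morphine. In NAc it was found at 2.4, 9.22, 1.26, 2.05 and 1.43 CPM with vehicle and at 2.29, 3, 1.09, 2.47 and 3.97 CPM with morphine. The vehicle library numbered 2 stood far above the rest of its group, and no NAc library fell to the TG range. The NAc libraries numbered 3, the highest for the other GIRK genes, were the lowest of their groups for Kcnj5.

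Its 5 transcripts (NM_010605.4, XM_006510039.3, XM_017313153.1, XM_017313154.1 and XM_017313155.1) divided these counts unevenly. In TG each library's counts fell on essentially 1 of the 5, and with at most 17.7 counts in a library no makeup could be determined there. In NAc the libraries held 69.5 to 533.9 Kcnj5 counts, and the share of a transcript still ran from 0% to as much as 77.5% within a group.

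**Figure D1:**
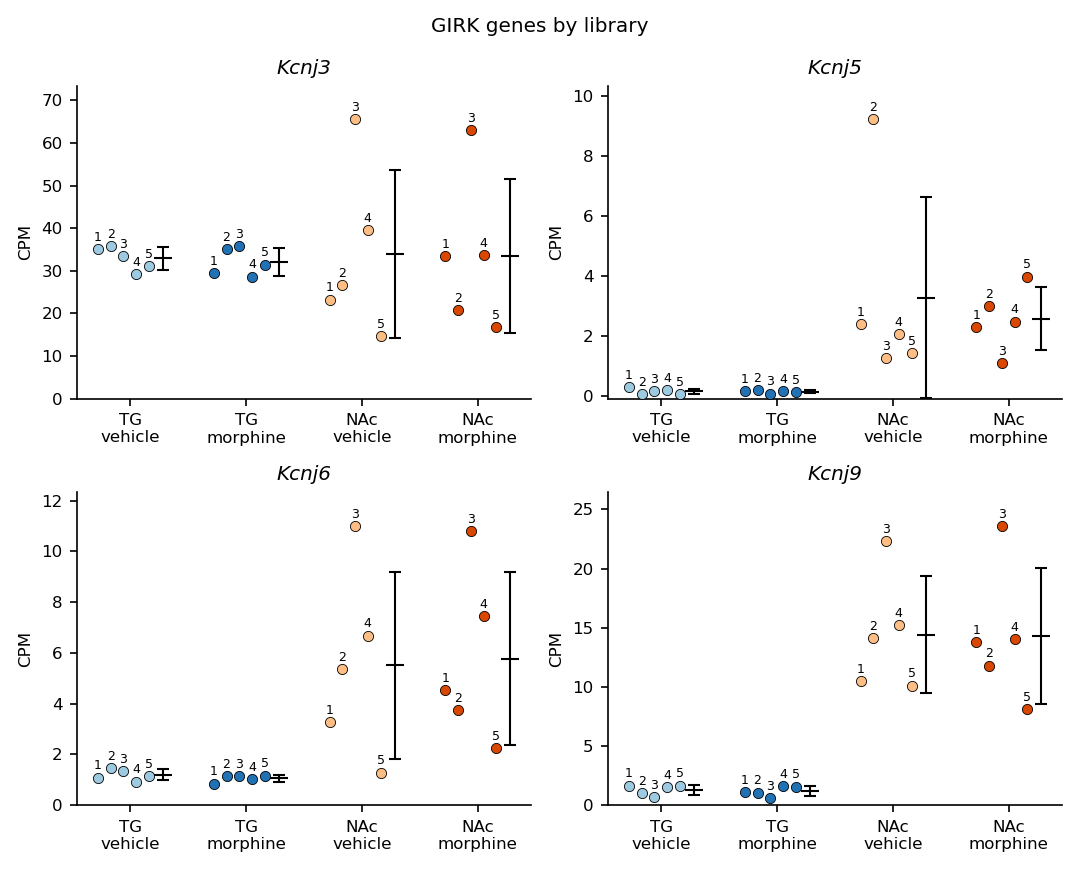
Level in CPM (counts scaled to a common library size) of each GIRK gene in each library, with the replicate number beside each point and the mean and SD of the 5 libraries as a bar. The TG libraries form tight groups for Kcnj3, while the NAc libraries numbered 3 are the highest for Kcnj3, Kcnj6 and Kcnj9 and the vehicle NAc library numbered 2 is the highest for Kcnj5 at 9.22 CPM.

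Divided by transcript length, so that genes can be compared, Kcnj3 stood further above the other subunits in TG than in NAc. In vehicle TG, Kcnj3 stood at 6.38 ± 0.524 CPM per kilobase, Kcnj6 at 0.455 ± 0.0821, Kcnj9 at 0.334 ± 0.112 and Kcnj5 at 0.0322 ± 0.0201 (SD, n = 5). Kcnj6 and Kcnj9 did not differ beyond their spread there, with Kcnj6 the higher in 7 of 10 TG libraries. With the longest Kcnj6 length (3627 bases in place of 2609) Kcnj6 was the higher in 4 of 10, and stood at 0.327 ± 0.059 CPM per kilobase in vehicle TG. That length belongs to NM_001025590.1, which had almost no counts. In vehicle NAc, Kcnj3 stood at 6.58 ± 3.84 CPM per kilobase, Kcnj9 at 3.74 ± 1.28, Kcnj6 at 2.11 ± 1.41 and Kcnj5 at 0.699 ± 0.716. Neighbouring genes in that order overlapped in mean and SD across libraries, yet within single libraries the order Kcnj3, Kcnj9, Kcnj6, Kcnj5 held in all 10. In CPM, before division by length, Kcnj5 was above Kcnj6 in the vehicle NAc libraries numbered 2 and 5 and the morphine library numbered 5. The values were 9.22 against 5.35, 1.43 against 1.27 and 3.97 against 2.25 CPM. The order of Kcnj6 and Kcnj5 thus depended on the lengths used. Lengths came from annotated models, and that of Kcnj6 is shorter than its RefSeq span allows, so its level per length is uncertain. The Kcnj5 length, 4685 bases, came from NM_010605.4 alone. That transcript held 4.7% of the pooled Kcnj5 counts in TG and 19.8% in NAc, so the Kcnj5 level per length is uncertain as well.

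As a share of the summed GIRK level per kilobase, Kcnj3 made up 86.9% to 92% in the 10 TG libraries and 40.2% to 55.3% in the 10 NAc libraries. The ranges of the tissues did not touch. Within a mouse the Kcnj3 share was higher in TG by 40.1 percentage points ± 4.59 (SD, n = 10 mice), and all 10 mice showed it. The Kcnj9 share was lower in TG by a difference of -25.3 points ± 4.42, from 29.8% in NAc to 4.57%. Kcnj6 took 15.5% in NAc and 6.05% in TG, and Kcnj5 5.8% and 0.446%, both lower in TG in all 10 mice. Each of the 4 differences had a 2-sided exact sign-flip p = 0.00195, the smallest that 10 pairs allow, and an adjusted p = 0.00195. Shares of a whole are not independent of each other, so these are not 4 separate results.

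Put as a ratio, the 3 partner genes together stood at 0.129 ± 0.0136 of the Kcnj3 level per kilobase in vehicle TG and at 1.08 ± 0.269 in vehicle NAc (SD, n = 5). With morphine the ratios were 0.12 ± 0.0258 in TG and 1.05 ± 0.176 in NAc. In TG the messages of the partner subunits were thus scarce beside that of Kcnj3, and in NAc they were about level with it. In bulk tissue, fewer cells of a type and less RNA per cell cannot be told apart.

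**Figure D2:**
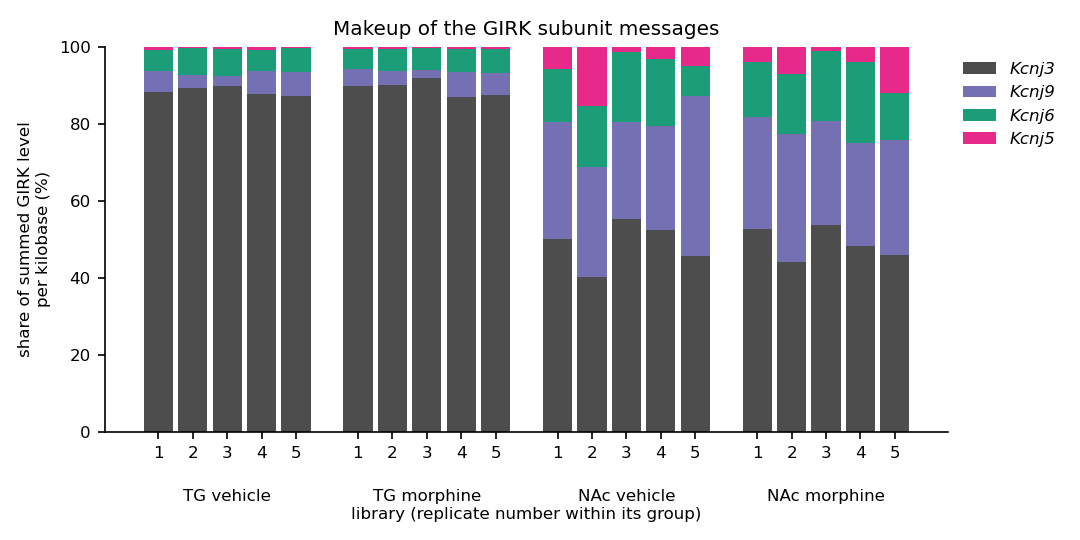
Share in percent of each GIRK gene in the summed GIRK level per kilobase, 1 bar per library, grouped by tissue and treatment. Kcnj3 fills 86.9% to 92% of each TG bar and 40.2% to 55.3% of each NAc bar, where Kcnj9 is the second-largest part.

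The tissues were then compared gene by gene in vehicle mice. Kcnj9 averaged 1.29 ± 0.431 CPM in TG and 14.4 ± 4.95 in NAc (SD, n = 5), Kcnj6 1.19 ± 0.214 and 5.51 ± 3.69 CPM, and Kcnj3 32.9 ± 2.7 and 33.9 ± 19.8 CPM. With edgeR's quasi-likelihood fit, adjusted over all features by Benjamini-Hochberg, the log2 fold change of TG over NAc was -3.49 ± 0.35 (SE) for Kcnj9 (adjusted p = 4.8e-08), an 11.2-fold lower level. For Kcnj6 it was -2.21 ± 0.45 (adjusted p = 0.000296), or 4.63-fold lower. For Kcnj3 it was -0.04 ± 0.34, with a 95% interval from -0.76 to 0.67 (adjusted p = 0.919), an interval too wide to show that the tissues were alike. Thus 2 of these 3 genes were lower in TG, where 34.5% of the 32998 features tested were lower and 67.4% differed either way.

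Kcnj5 averaged 0.151 ± 0.0941 CPM in TG and 3.27 ± 3.35 in NAc, a log2 fold change of -4.43 ± 0.61 (adjusted p = 3.5e-06). It passed the filter on low counts only through NAc, so its call adds nothing to the count above. Without the vehicle NAc library numbered 2 the fold change was -3.56. Leaving out other libraries 1 at a time moved the log2 fold change of Kcnj6 to between -2.46 and -1.80, of which the latter was without the vehicle NAc library numbered 3. That of Kcnj9 stayed between -3.59 and -3.27, and the calls of Kcnj6 and Kcnj9 held each time. The groups of 5 did not overlap for Kcnj9 and overlapped for Kcnj3 and Kcnj6. Among all features 55.2% had groups that did not overlap, with TG the lower for 27.3%. The Kcnj5 groups did not overlap either, but it passed the filter only through NAc and is not counted here. Shares of all features between the tissues, here and below, include features that passed the filter on low counts through 1 tissue alone. The counts of called genes and transcripts beside them leave such members out.

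Medium spiny neuron markers had a mean sum of 3023 CPM in vehicle NAc and 201 CPM in vehicle TG, which is 6.64% of it, and the cortical markers 581 and 250 CPM, which is 43.1%. Kcnj9 in TG stood at 8.92% of its NAc level, Kcnj6 at 21.5% and Kcnj3 at 97%. The part of these marker genes in the tissue differences was not tested. Tac1 of the medium spiny list averaged 147 CPM in vehicle TG and 191 CPM in vehicle NAc. The medium spiny sum in TG was thus mostly Tac1 and is no measure of medium spiny neurons there. Slc17a7 and Cux2 of the cortical list are counted in TG at 215 and 31.7 CPM, so that sum is no measure of cortical cells there, whereas Tbr1, Emx1 and Neurod6 averaged 0.153, 0.0312 and 0.0549 CPM.

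Morphine did not move any GIRK gene past the threshold in TG. There, 3 genes were tested, since Kcnj5 did not pass the filter on low counts, and 0 were called, where 0.18% of 29394 features were. No GIRK gene had an unadjusted p under 0.05 there, where 10.1% of features did. Limma voom called 0 of the 3 as well, and DESeq2, which gave an adjusted p for Kcnj3 alone, did not call it. The log2 fold change of morphine over vehicle was -0.04 ± 0.08 (SE) for Kcnj3, with a 95% interval from -0.22 to 0.14 (edgeR adjusted p = 0.919). For Kcnj6 it was -0.18 ± 0.16, from -0.54 to 0.19 (adjusted p = 0.787), and for Kcnj9 -0.14 ± 0.32, from -0.84 to 0.57 (adjusted p = 0.934). The interval was narrow for Kcnj3, whose TG libraries held 1689.5 to 2623.4 counts. It was widest for Kcnj9, with 38.5 to 104 counts, and between these for Kcnj6, with 53 to 107. What set the widths was not tested.

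In NAc, 0 of 4 GIRK genes were called, where 0% of 29910 features were called by edgeR after adjustment and 5.71% had an unadjusted p under 0.05, no GIRK gene among the latter. DESeq2 called 245 features and limma voom 4 in the same comparison, and no GIRK gene was among them. The edgeR log2 fold changes were -0.02 for Kcnj3 (95% interval -1.02 to 0.99), 0.06 for Kcnj6 (-1.20 to 1.32), -0.02 for Kcnj9 (-0.69 to 0.65) and -0.35 for Kcnj5 (-1.65 to 0.94), with edgeR adjusted p between 0.998 and 1. Limma voom with quality weights gave -0.29 for Kcnj3, -0.17 for Kcnj6, -0.17 for Kcnj9 and 0.31 for Kcnj5, so the sign for Kcnj5 and Kcnj6 depended on the tool. The NAc interval was wider than the TG interval for Kcnj3 and Kcnj6 and about as wide for Kcnj9, and Kcnj5 was not tested in TG.

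With both NAc libraries numbered 3 removed, the log2 fold changes were 0.01 for Kcnj3, 0.12 for Kcnj6, -0.06 for Kcnj9 and -0.36 for Kcnj5, none of them called. A cortical marker score of each library was then used as a covariate, the mean log2 level of the cortical markers and not their summed CPM. With it the log2 fold changes were -0.36 for Kcnj3 (edgeR adjusted p = 0.892), -0.32 for Kcnj6, -0.26 for Kcnj9 and 0.17 for Kcnj5. Both settings were chosen after the data had been seen.

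The effect of morphine in TG minus that in NAc was called for 0 of 4 genes, where 0.0394% of 32998 features were, that is 13, or 1 with the mouse as a block. It was -0.02 ± 0.48 (SE, log2) for Kcnj3, -0.23 ± 0.62 for Kcnj6, -0.11 ± 0.45 for Kcnj9 and 0.28 ± 0.79 for Kcnj5, each with an edgeR adjusted p = 1. The subunit shares did not pass the test either. The Kcnj3 share was 88.6% with vehicle and 89.3% with morphine in TG, and 48.8% and 49% in NAc, and all 8 exact permutation tests had an adjusted p = 1 (5 against 5 allows no p under 0.00794).

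**Figure D3:**
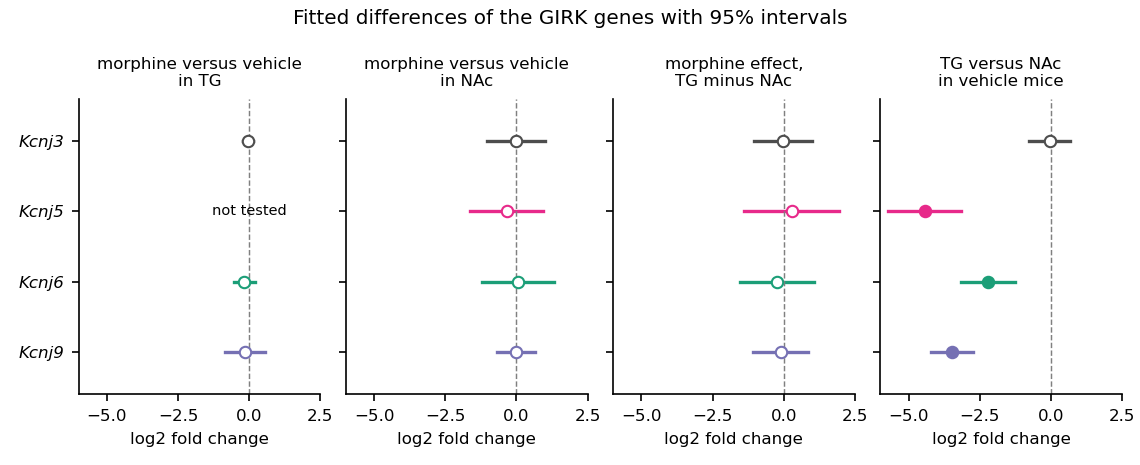
Log2 fold change of each GIRK gene with its 95% interval in the 4 comparisons, filled where the adjusted p passed the threshold. The 3 filled points are Kcnj5, Kcnj6 and Kcnj9 in the tissue comparison, from -4.43 to -2.21, of which Kcnj5 passed the filter on low counts only through NAc, and every interval for morphine crosses 0.

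Tested as single transcripts, 0 of 6 GIRK transcripts were called after morphine in TG, where 0.0587% of 54492 transcripts were, and 0 of 9 in NAc, where 0% of 55092 were. Between the tissues, 3 of the 6 that passed the filter on low counts in both tissues were lower in TG, where 25.9% of 63943 transcripts were lower and 50.4% differed either way. Both main Kcnj6 forms were among them, with log2 fold changes of -2.22 ± 0.48 (SE) for NM_001025584.2 and -2.18 ± 0.53 for NM_010606.2 (edgeR adjusted p = 0.000778 and 0.00204). The third was NM_008429.2 of Kcnj9, at -3.47 ± 0.35. The 3 Kcnj5 transcripts tested passed the filter only through NAc and are left out of that count. One of them, XM_017313153.1, counted in 0 of 5 vehicle TG libraries, had an adjusted p = 0.0132 in edgeR, and with the mouse as a block its adjusted p = 0.0716. The long Kcnj3 form differed by 0.01 ± 0.35 (adjusted p = 0.981) and the short form by -0.31 ± 0.94 (adjusted p = 0.813).

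**Figure D4:**
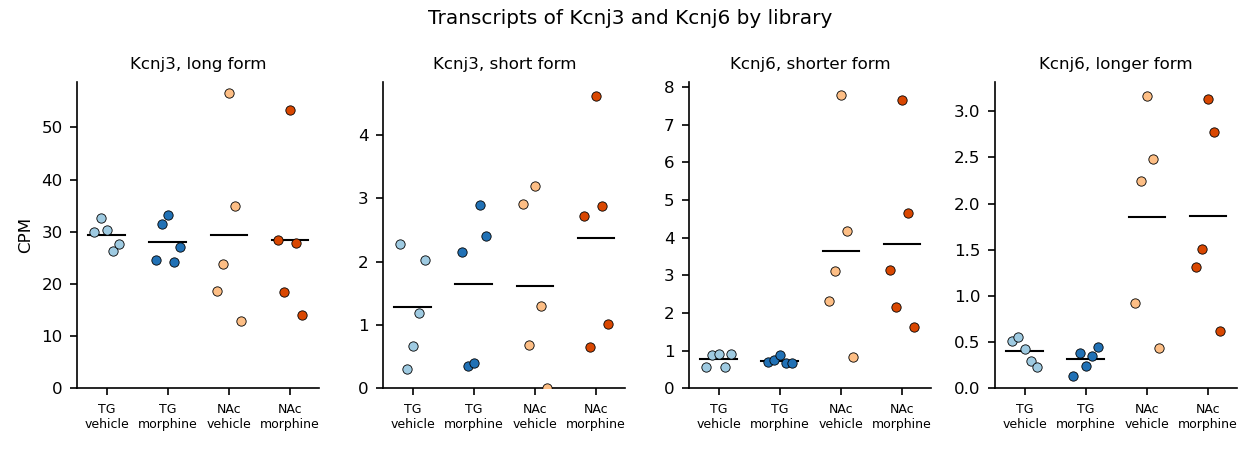
Level in CPM of the long and short Kcnj3 forms and the shorter and longer Kcnj6 forms in each library, with the mean of 5 libraries as a line. Both Kcnj6 forms are lower in TG than in most NAc libraries, and the short Kcnj3 form scatters within every group, down to 0 in 1 vehicle NAc library.

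Across the 10 NAc libraries the levels of Kcnj3, Kcnj6 and Kcnj9 varied together. On log2 values Kcnj3 and Kcnj6 had Pearson's r = 0.95 and Spearman's rho = 0.96 (permutation p = 4e-05 and 2e-05), Kcnj3 and Kcnj9 had r = 0.96 and rho = 0.93 (permutation p = 5e-05 and 0.00037), and Kcnj6 and Kcnj9 had r = 0.91 and rho = 0.94 (permutation p = 0.00037 and 0.0002). All were past the threshold after adjustment over the 18 relations computed, with adjusted p between 0.00036 and 0.0022. Leaving out the 2 libraries farthest from the median gave r = 0.93, 0.88 and 0.95. Kcnj3 and Kcnj5 had r = -0.44 (permutation p = 0.21), and r = 0.03 without the 2 farthest libraries. Centring each treatment on its own mean left the first 3 values of r at 0.95, 0.96 and 0.91.

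The summed CPM of the cortical markers was related to Kcnj3 and, inversely, to Kcnj5. It had r = 0.80 and rho = 0.82 with Kcnj3 (permutation p = 0.0061 and 0.006, both adjusted p = 0.022), and r = -0.87 and rho = -0.87 with Kcnj5 (permutation p = 0.00048 and 0.002, adjusted p = 0.0022 and 0.0089). Without the 2 farthest libraries r was 0.91 and -0.74. With Kcnj9 r was 0.77 and rho 0.70 (adjusted permutation p = 0.032 and 0.071), with r = 0.97 without the 2 farthest, and with Kcnj6 r was 0.65 and rho 0.70 (adjusted permutation p = 0.083 and 0.071), with r = 0.81. The medium spiny neuron markers had r between -0.67 and -0.30 with the 4 genes, and none of these passed the adjustment. The part of the cell makeup of each library in these relations was not tested.

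In TG the same pairs did not pass. Kcnj3 and Kcnj6 had r = 0.70 and rho = 0.58 over 10 libraries (permutation p = 0.025 and 0.089, adjusted p = 0.057 and 0.16), Kcnj3 and Kcnj9 r = -0.55 and Kcnj6 and Kcnj9 r = -0.40. Sensory neuron markers had r = -0.71 and rho = -0.77 with Kcnj3 (adjusted permutation p = 0.057 and 0.038), and r = -0.60 without the 2 farthest libraries. Whether these relations differ between the tissues was not tested.

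**Figure D5:**
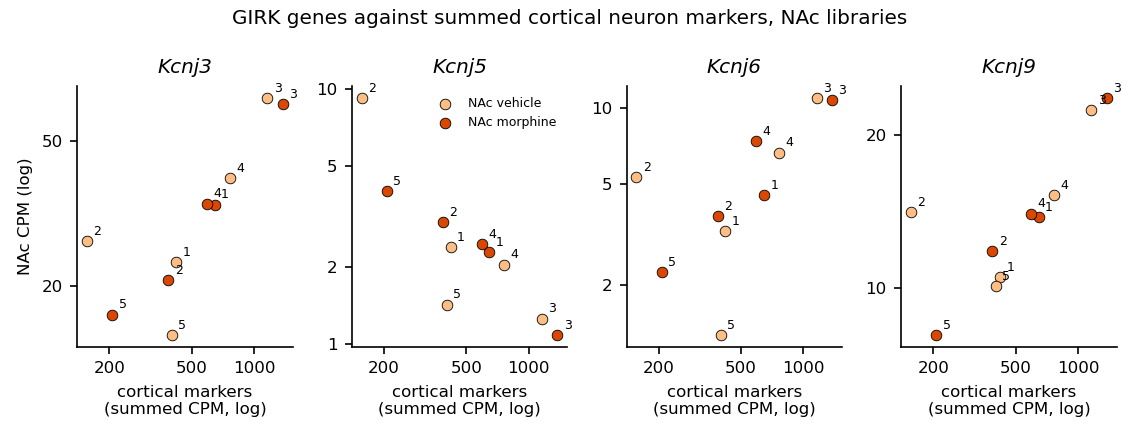
Level in CPM of each GIRK gene against the summed CPM of 7 cortical neuron markers in the 10 NAc libraries, both on log axes, with replicate numbers. Kcnj3, Kcnj6 and Kcnj9 are highest in the libraries numbered 3, which have marker sums of 1162 and 1378 CPM, and Kcnj5 is lowest there.

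The receptors that open GIRK channels form the first list of partners, with 22 genes. After morphine 0 of 20 tested were called in TG and 0 of 22 in NAc, where 0.18% and 0% of all features were. The median log2 fold changes were 0.00 and 0.00, beside -0.00 and -0.01 over all features. Oprm1, the mu opioid receptor on which morphine acts, averaged 1.17 ± 0.162 CPM in vehicle and 1.92 ± 0.584 in morphine TG (SD, n = 5), a log2 fold change of 0.71 ± 0.21 (SE, edgeR adjusted p = 0.263). In NAc it averaged 1.32 ± 0.249 and 1.5 ± 0.132 CPM (adjusted p = 0.994).

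Between the tissues, 13 of the 20 receptor genes that passed the filter on low counts in both were lower and 2 higher in TG, where 34.5% of all features were lower and 32.9% higher, with a median log2 fold change of -0.95 beside -0.06 over all features. Drd4 and Sstr5 passed the filter only through NAc and are not counted. The dopamine receptor gene Drd2 (-5.40 ± 0.26), the muscarinic receptor gene Chrm4 (-3.34 ± 0.14), the kappa opioid receptor gene Oprk1 (-2.93 ± 0.10) and Gabbr1 (-0.83 ± 0.04), a subunit of the GABA-B receptor, were lower with the smallest p. The delta opioid receptor gene Oprd1 was lower as well (-0.92 ± 0.13), Gabbr2, the other GABA-B subunit, was higher (1.16 ± 0.16), and Oprm1 did not pass (-0.18 ± 0.18). Per kilobase, Gabbr1, Gabbr2 and the adenosine receptor gene Adora1 led in vehicle TG at 88.3, 34.8 and 26 CPM, and Gabbr1, Chrm4 and Drd2 in vehicle NAc at 157, 52.1 and 46.5 CPM. Each of these receptor messages was thus more abundant per length than Kcnj3 in the same tissue.

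The alpha subunits of inhibitory G proteins, 5 genes, had 0 calls after morphine in either tissue, where 0.18% of features were called in TG and 0% in NAc, and a median log2 fold change of 0.06 between the tissues, beside -0.06 over all features. Gnai3 (0.95 ± 0.05, log2 TG over NAc) and Gnai2 (0.48 ± 0.08) were higher in TG, Gnao1 (-0.36 ± 0.07) and Gnai1 (-0.26 ± 0.05) were lower, and 1 did not pass, where 32.9% of all features were higher and 34.5% lower. Gnao1 was the most abundant in both tissues, at 146 ± 5.84 and 188 ± 21.3 CPM per kilobase in vehicle TG and NAc (SD, n = 5). Of 14 genes for beta and gamma subunits, the parts that bind the channel, 0 were called after morphine, and 6 were higher and 5 lower in TG, with a median of 0.07, beside the same shares of all features. Gng7, a gamma subunit of striatal neurons, was lower by a log2 fold change of -5.08 ± 0.20, with Gng10 (-1.49 ± 0.08) and Gng12 (-0.67 ± 0.05), and Gng8 was higher (2.21 ± 0.11). Gnb1 led in vehicle TG at 247 ± 9.85 CPM per kilobase and Gng7 in vehicle NAc at 286 ± 96.6.

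Of 12 genes that regulate GIRK channels, most of them RGS proteins that speed the shut-off of G proteins, 0 were called after morphine, where 0.18% of features were in TG and 0% in NAc. In TG 5 were higher and 5 lower than in NAc, where 32.9% and 34.5% of features were, with a median of 0.11. Rgs9 (-4.65 ± 0.22), Rgs2 (-2.84 ± 0.13) and Rgs8 (-1.44 ± 0.10) were lower in TG and Rgs11 was higher (2.26 ± 0.18), all as log2 fold changes. Rgs4 and Rgs7bp were the most abundant in vehicle TG, at 290 ± 14.3 and 121 ± 5.27 CPM per kilobase, and Rgs9 and Rgs4 in vehicle NAc, at 226 ± 96.2 and 132 ± 63.5. Of 11 other inward rectifier genes, 8 passed the filter on low counts in both tissues, of which 2 were higher and 6 lower in TG, beside the same 32.9% and 34.5% of features, with a median of -0.92. Kcnj13 and Kcnj15 passed it only through TG and are not counted. No gene of this list was called after morphine, where 0.18% of features were in TG and 0% in NAc. Kcnj2 (-3.37 ± 0.23), Kcnj4 (-3.11 ± 0.19) and Kcnj11 (-2.13 ± 0.10) were lower, and Kcnj12 was higher (1.37 ± 0.08). Per kilobase Kcnj10, the potassium channel of glia, led in vehicle TG at 24.2 ± 3.22 CPM and Kcnj4 in vehicle NAc at 70.3 ± 22.1, both above Kcnj3. None of these lists had a call in the difference of the morphine effect between the tissues, where 0.0394% of all features were called.

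Genes whose pattern over the 20 libraries was most like that of each GIRK gene were ranked by the root mean square difference of log2 values centred on each gene's mean, over 12171 genes. For Kcnj3 these were Serpini1 (0.16), Pcsk5 (0.21) and Golga7b (0.23), against 0.49 for Kcnj3's own deviation from its mean. Serpini1, which encodes neuroserpin, an inhibitor of proteases secreted by neurons, averaged 104 CPM in TG and 111 in NAc, and it too varied more in NAc, from 48.3 to 193 CPM, than in TG, from 85.8 to 117. For Kcnj6 they were Efhd2 (0.27), Adgra1 (0.30) and Ptpru (0.31), for Kcnj9 Enc1 (0.29), the nicotinic receptor gene Chrna4 (0.31) and Galntl6 (0.32), and for Kcnj5 the cation channel gene Trpc5 (0.31), Gpr165 (0.33) and N4bp2 (0.33). The own deviations of Kcnj6, Kcnj9 and Kcnj5 were 1.04, 1.59 and 1.22. Each of these 9 genes had a lower mean level in TG than in NAc, as did the GIRK gene it was matched to. The ranking used the libraries of both tissues, so it picks genes with the same tissue difference and spread. Neither this lower level in TG nor the wider NAc spread of Serpini1 is thus a separate result.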

How the data were processed

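Both tissues of 10 mice were sequenced for 101 cycles from strand-specific poly(A) libraries, per the labels' protocols. The sources conflict on whether 1 or both ends were read, and earlier and later lanes are mentioned without the libraries on them, which left no batch to fit. The authors deposited expected counts (estimated read counts, not normalised) per RefSeq transcript, made with kallisto 0.43 on GRCm38 per the submitters' processing notes. Its settings are not given in the sources used. Of the values, 56% were not whole numbers, and reads shared by transcripts of a gene are split by a model, so single transcripts are less certain than gene sums.

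Sums per gene followed the RefSeq table of GRCm38.p6 (86631 matched, 80.8%, 174 of them only through GENCODE M21), the other 20554 were kept as features of their own, and counts were rounded. Each tissue was fitted with edgeR 4.0.16 (filterByExpr, TMM, robust quasi-likelihood, 2-sided, Benjamini-Hochberg, adjusted p threshold 0.05) in R 4.3.3, and the tissue difference and interaction on all 20 libraries. SE is the size of the log2 fold change over the root of F. Shares were tested by exact permutation and correlations with 100000 permutations in Python 3.11.15 with numpy 2.4.6 and scipy 1.17.1. CPM printed use TMM over all libraries, and log2 values add 0.5 CPM. Transcript lengths come from GENCODE M21. The fits were tested on simulated data with a fixed spread between libraries, smaller than that of the GIRK genes in NAc. That test thus does not show how small a change in these genes could be found there. Alternatives were DESeq2 1.42.0, limma 3.58.1 voom, other scaling, filters and blocks, and leaving out each library.

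The genes, lists and tests were chosen with earlier results of these data known. The lists are inward rectifiers, receptors, G protein subunits, regulators and cell markers. From each list of the pathway the text names up to 4 called genes with the smallest p, up to 3 with the highest level per tissue, and Oprm1, Oprd1, Oprk1, Gabbr1 and Gabbr2. For likeness it names 3 genes with a mean of at least 5 CPM. Pairing of TG and NAc comes from the mouse codes in the labels. The deviations of a mouse's TG and NAc libraries had correlations between -0.0563 and 0.0317.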

Additional observations from a re-analysis of the deposited data

Results flagged for a closer look

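In 62 groups of 5 libraries searched, 5 held a library whose gap to its nearest neighbour was too large a part of the group's range by Dixon's test. Its rate of about 1 in 20 groups by chance assumes independent values with a normal spread. Transcript shares of a gene depend on each other, and many Kcnj5 shares were 0. That rate thus cannot be set against the 5 groups found. The vehicle NAc library numbered 2 had 9.22 CPM of Kcnj5, with the nearest library at 2.4 CPM. In the same library the Kcnj5 transcript NM_010605.4 held 35.1% of the gene's counts, against at most 0.000212% in the other vehicle NAc libraries. XM_017313154.1 of Kcnj5 held 48% of the counts in the vehicle NAc library numbered 3, with the nearest at 2.08%, and XM_017313155.1 of Kcnj5 held 42.2% in the morphine NAc library numbered 1, with the nearest at 2.58%. XM_006497731.3 of Kcnj3 held 11.9% in the vehicle NAc library numbered 5, with the nearest at 8.71%.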

How the results depend on the processing

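The counts of GIRK genes called did not change in any alternative run: 0 after morphine in TG (where DESeq2 gave no adjusted p for Kcnj6 and Kcnj9) and in NAc, Kcnj6 and Kcnj9 lower in TG than in NAc, and 0 in the difference of the morphine effect. Kcnj5, which passed the filter only through NAc, was called lower in TG as well. Over 8 settings of the tissue comparison, the one reported and the mouse as a replicate block among them, log2 fold changes ran from -4.6 to -3.9 for Kcnj5, from -2.37 to -1.93 for Kcnj6 and from -3.64 to -3.47 for Kcnj9. Kcnj3 ran from -0.2 to 0.14 there and was never called. The number of GIRK transcripts called between tissues, Kcnj5 transcripts included, was 4 to 5 when 1 library was left out. Same-numbered morphine and vehicle libraries had correlations of their deviations from 0.0254 to 0.286 in NAc, 3 of 5 over 0.1, and from -0.00557 to 0.0396 in TG, 0 of 5 over 0.1. Since not every pair exceeded 0.1 the number was not taken as a pairing, and 3 of 10 NAc and 0 of 10 TG libraries correlated best with their own number. With the number as a replicate block, 2 features were called in TG and 0 in NAc, and no GIRK gene, with NAc log2 fold changes of 0.01 for Kcnj3, 0.17 for Kcnj6 (edgeR unadjusted p = 0.421), -0.04 for Kcnj9 and -0.03 for Kcnj5. With the mouse as a replicate block the tissue comparison called 21406 features and the interaction 1, in place of 22232 and 13.

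In vehicle mice alone the subunit shares differed between tissues by 39.8 points for Kcnj3, -5.57 for Kcnj5, -8.41 for Kcnj6 and -25.8 for Kcnj9, each with an exact p = 0.0625, the smallest that 5 pairs allow. With 1 mouse left out the differences ran from 39.1 to 40.7, -5.87 to -4.26, -10.3 to -8.81 and -25.8 to -24.1 points. The share of the long Kcnj3 form, NM_008426.2, differed by 2.09 to 3.13 points, and the 3.13 without morphine mouse 1 passed the threshold. XM_006510039.3 of Kcnj5 passed it in the tissue comparison with DESeq2 (-4.24), with library size alone (-4.38), with a minimum of 1 CPM in 5 libraries (-4.23) and without 3 single libraries.

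Over all features, the calls after morphine in TG were 709 by DESeq2, 81 by limma voom, 87 with the 1 CPM minimum and 21 to 77 with 1 library left out, in place of 53. They fell below 53 by more than 1.5 times in 8 of the 10 cases. In NAc they were 245 by DESeq2, 4 by limma voom, 1 with the 1 CPM minimum, 1 without both libraries numbered 3 (a setting chosen after the data had been seen), 73 in the fit on all libraries and 0 whenever 1 library was left out, in place of 0. For the interaction they were 228 by DESeq2, 0 by limma voom, 8 with library size alone, 8 with no filter and 6 to 33 with 1 library left out, in place of 13, the 33 without the vehicle NAc library numbered 5. Over transcripts in TG they were 971 by DESeq2, 50 with the 1 CPM minimum, 0 with the block and 3 to 35 with 1 library left out, in place of 32, and in NAc 223 by DESeq2 and 39 on all libraries, in place of 0. With library size alone as the scaling, the all-feature median of the tissue comparison went from -0.06 to -0.21 (log2), with 9336 higher and 13228 lower in place of 10856 and 11376. The cause of these changes was not tested. Low counts limit Kcnj5 in TG most.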
